A study of Mus musculus with 3 samples.

Results

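The genes described are the 13 protein-coding genes of the mouse mitochondrial genome and 78 nuclear genes named for proteins of the mitochondrial ribosome. By symbol, 49 of the 78 are of the large subunit (Mrpl genes) and 29 of the small subunit (Mrps genes), which does not hold for every protein. Genes under other symbols are not included. Members were taken by symbol, as every mt- gene and every Mrpl or Mrps gene with a number, a rule that names no measured value but was set with earlier results of these data known. All 91 had at least 20 unique molecular identifiers (UMIs) summed over the kept cells and were tested beside 15197 of the 32285 genes in the deposited tables. The member with the fewest UMIs, Mrps2, had 905, so that none lay near the minimum of 20 and none fell outside it.

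The cells were bone marrow derived macrophages (BMDMs) grown from the marrow of female C3H/HeN mice 6 to 8 weeks old, which the labels describe as pooled. UI cells were untreated, received PBS and were collected with the later time point, and LP1 and LP4 cells received 1 µg/mL of purified *Borrelia burgdorferi* lipoproteins (*Bb*LP) for 1 h and 4 h. Each condition is 1 library of the Chromium 3′ assay, into which the cells of 3 wells were pooled, so there was no replicate library and no test between conditions was possible. UI had no 1 h counterpart, and time in culture and treatment cannot be told apart for LP1.

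Mitochondria hold their own circular genome, which encodes core subunits of the respiratory chain and of ATP synthase, and their own ribosomes, which translate only these mRNAs. The RNAs are made as long transcripts from both strands and are cut apart, mostly at the tRNAs that lie between the genes, before poly(A) addition. The ribosomal proteins, by contrast, are all encoded in the nucleus, are made in the cytosol and are imported, so that building the respiratory chain draws on both genomes. Macrophages that sense bacterial lipoproteins through TLR2 are known to shift their energy metabolism towards glycolysis.

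After barcodes with at most 500 UMIs or at most 500 genes were removed, 6089 UI, 5108 LP1 and 4943 LP4 cells remained, with 35726192, 52765714 and 64714103 UMIs. The median cell held 5125 UMIs in UI, 9308 in LP1 and 11750 in LP4, and depth therefore rose in the same order as the conditions. The libraries shared 4 to 10 barcode sequences in each pair. The summed level of 10 macrophage markers was 11813, 12325 and 11876 counts per 1000000 UMIs (CPM) in UI, LP1 and LP4. Single macrophage markers moved both ways under this sum. Their LP4/UI log2 ratios of CPM ran from -1.42 to 2.24, with 4 above 0 and 6 below. Lymphoid and mast cell markers together were under 4 CPM. Dendritic cell markers were at 234, 237 and 218 CPM, cycling markers at 622, 684 and 662 CPM, and neutrophil markers at 375, 278 and 498 CPM. The 10 neutrophil markers also moved both ways, with LP4/UI log2 ratios from -4.76 to 0.85, 4 above 0 and 6 below. Erythroid and megakaryocyte markers, at 2479, 1981 and 2200 CPM, were nearly all Pf4, with Hbb-bs and Hba-a2 at 0. Stromal markers, although few, were at 4.42, 6.29 and 20.0 CPM, with all 8 called higher in LP4.

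A gene is called higher or lower where the log2 ratio of its CPM was at least 0.5 in size and the exact 95% interval of that ratio lay beyond 0. These intervals, like all intervals given here, cover counting error within a library and not the spread between cultures. Over all 15197 genes this rule called 5.49% higher and 8.11% lower in LP1 against UI, 20.2% higher and 29.9% lower in LP4 against UI, and 18.6% higher and 25% lower in LP4 against LP1. Of the genes that reached 10 CPM in either library of a pair, 5.75% were higher and 4.35% lower in LP1/UI, 23.2% and 27% in LP4/UI, and 19.1% and 21.6% in LP4/LP1. The median log2 ratio of all genes was -0.05, -0.16 and -0.11. With the TMM scaling of edgeR, which raised every LP4/UI ratio by 0.17, the LP4/UI shares were 25.6% higher and 23.3% lower.

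The mitochondrial genome RNAs took a larger share of the UMIs after *Bb*LP, and the mitochondrial ribosome genes a smaller share at 4 h. The mitochondrial RNAs together held 2.01% of UMIs in UI, 2.91% in LP1 and 3.39% in LP4. The Mrp genes together held 0.356%, 0.352% and 0.279%. On the log2 scale the mitochondrial sum differed by 0.54 in LP1 and 0.75 in LP4 from UI, whereas the Mrp sum differed by -0.02 and -0.35. In the macrophage-like clusters alone, without the cells that stromal, neutrophil, dendritic cell or cycling markers set apart, the 4 h values were 0.75 and -0.35. An unnamed cluster of 193 cells was left out of these too. The nuclear RNAs Malat1 and Neat1 were at 8255, 7080 and 6731 CPM and at 1495, 1205 and 616 CPM, and their part in these results was not tested. The 2 groups of genes lay on opposite sides of UI at 4 h, within the same libraries and over the same denominator. As counts per cell the picture differed, because LP4 cells held 13092 UMIs on average and UI cells 5867. A mean cell held 118, 301 and 443 mitochondrial UMIs and 20.9, 36.3 and 36.6 Mrp UMIs. Whether cells held more RNA or libraries were sequenced more deeply cannot be told apart here.

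The mitochondrial genes lie close together, and in 2 places they overlap on the same strand by more than the 1 base that mt-Atp6 and mt-Co3 share. The RNAs of mt-Atp8 and mt-Atp6, which encode the ATP synthase subunits of the membrane part, stay joined as 1 mRNA, as do those of mt-Nd4l and mt-Nd4, which encode complex I subunits. Both overlaps are shown since the results below turn on these pairs. Capitals mark the bases that both genes share, read 5′ to 3′ on the plus strand of chrM in GRCm38.
mt-Atp8 and mt-Atp6, chrM:7927-7969, 43 shared bases: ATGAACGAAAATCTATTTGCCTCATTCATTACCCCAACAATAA
mt-Nd4l and mt-Nd4, chrM:10152-10188, 7 shared bases: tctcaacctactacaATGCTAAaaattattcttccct
In each overlap the shared bases begin with the ATG start codon of the downstream gene and end with the TAA stop codon of the upstream gene, in another reading frame.

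Of the 13 mitochondrial RNAs, 5 were called higher and 1 lower in LP1 against UI, and 8 were called higher and 1 lower in LP4 against UI. These are 38.5% and 61.5% called higher, against 5.49% and 20.2% of all genes. The 13 genes are poor in GC, from 31.9% (mt-Atp8) to 41.1% (mt-Nd4l) of the transcript. Of 2642 genes of at least 10 CPM with 31.9% to 46.8% GC, 177 were called higher and 54 lower in LP1/UI. In LP4/UI 902 of them were called higher and 361 lower, with a median log2 ratio of 0.23. The part of GC content in the mitochondrial calls was not tested. The 13 mitochondrial RNAs did not move as a block. Their log2 ratios in LP4 ran from -0.71 to 1.12, although all but mt-Nd6 are cut from long transcripts of the same strand.

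**Figure D1:**
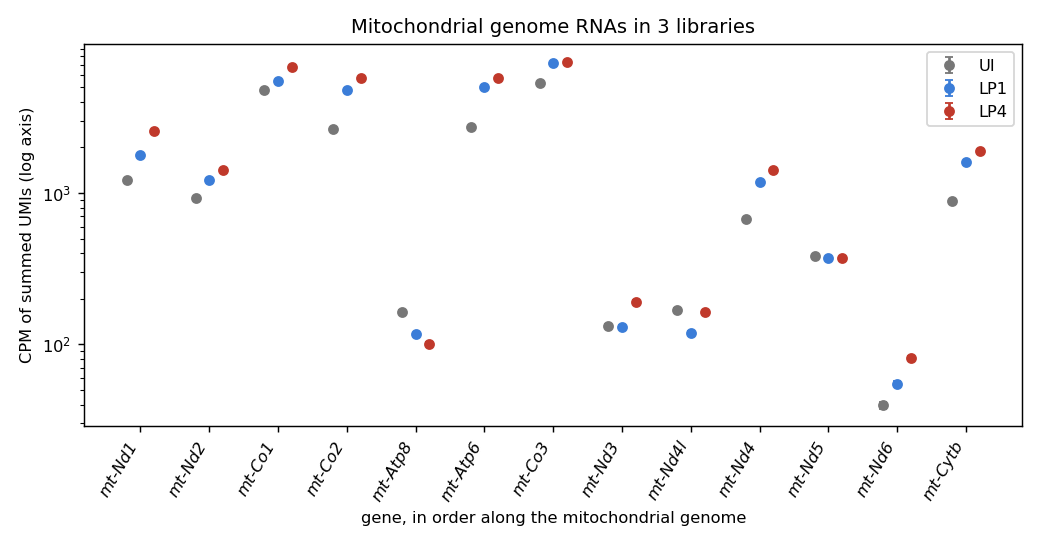
CPM of summed UMIs (log axis) for the 13 mitochondrial genes in their order along the genome, with UI in grey, LP1 in blue, LP4 in red and 95% Poisson counting intervals that are mostly smaller than the points. mt-Atp8 is the gene whose LP1 and LP4 points both lie well below UI, while mt-Atp6 next to it goes from 2722 to 5765 CPM.

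Complex I, which takes electrons from NADH, has 7 subunits encoded in the mitochondrial genome. Their summed level was 3535 CPM in UI, 4865 in LP1 and 6207 in LP4, which is a log2 ratio of 0.81 (0.80 to 0.82) at 4 h. mt-Nd1 (chrM:2751-3707) was at 1212, 1782 and 2566 CPM and mt-Nd4 (chrM:10167-11544) at 678, 1184 and 1412 CPM, so that both were called higher at 1 h and at 4 h. mt-Nd2 (chrM:3914-4951) was at 920, 1223 and 1423 CPM, with log2 ratios of 0.41 at 1 h and 0.63 at 4 h. mt-Nd3 (chrM:9459-9806) was at 132, 131 and 192 CPM, level at 1 h with a log2 ratio of -0.01 and higher at 4 h with 0.54. The other 3 subunit genes behaved differently from these and from each other. mt-Nd5 (chrM:11742-13565) was at 384, 370 and 371 CPM, near level throughout. mt-Nd4l (chrM:9877-10173) was at 170, 119 and 164 CPM, called lower at 1 h with a log2 ratio of -0.51 and back near the UI level at 4 h. The 1 h call was lost under TMM, at -0.44, under median-of-ratios scaling, at -0.49, and in cells of 5000 to 15000 UMIs, at -0.47. At 4 h mt-Nd5 and mt-Nd4l both had a log2 ratio of -0.05, which turned to 0.11 and 0.12 under TMM scaling.

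mt-Nd6 (chrM:13552-14070) is the sole protein-coding gene read from the other strand, and its transcript is thus separate from that of the other 12. It was at 39.6, 54.9 and 81.1 CPM. The log2 ratio was 0.47 (0.38 to 0.56) in LP1, short of the call, and 1.03 (0.95 to 1.12) in LP4. Against LP1, mt-Nd6 had a log2 ratio of 0.56 at 4 h and was called higher, as were mt-Nd1 at 0.53 and mt-Nd3 at 0.55. These 3 of 13 mitochondrial genes are 23.1%, near the 18.6% of all genes called higher in LP4/LP1. The 14-base overlap of mt-Nd6 with the end of mt-Nd5 is on opposite strands.

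mt-Cytb (chrM:14145-15288), which encodes cytochrome b, the complex III subunit that oxidises ubiquinol, was at 881, 1601 and 1909 CPM. With mt-Co2 it had the highest LP4/UI log2 ratio of the 13, 1.12 (1.10 to 1.13).

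Complex IV, the oxidase that passes electrons to oxygen, has its 3 catalytic core subunits in the mitochondrial genome. Their sum was 12775, 17515 and 19870 CPM in the order UI, LP1 and LP4. mt-Co2 (chrM:7013-7696) was at 2640, 4760 and 5720 CPM, with log2 ratios of 0.85 and 1.12. mt-Co1 (chrM:5328-6872) and mt-Co3 (chrM:8607-9390), on either side of it along the genome, moved less. mt-Co1 was at 4826, 5501 and 6757 CPM and mt-Co3 at 5308, 7254 and 7393 CPM. Their LP4/UI log2 ratios were 0.49 and 0.48, short of the call, and became 0.65 and 0.64 under TMM scaling.

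The ATP synthase pair lay furthest apart. mt-Atp6 (chrM:7927-8607) was at 2722, 5033 and 5765 CPM, with log2 ratios of 0.89 (0.88 to 0.90) and 1.08 (1.07 to 1.09). mt-Atp8 (chrM:7766-7969), directly upstream, was at 164.5, 116.5 and 100.8 CPM, with log2 ratios of -0.50 (-0.55 to -0.45) and -0.71 (-0.76 to -0.66). At 1 h mt-Atp8 was at -0.497 before rounding and missed the call, and at 4 h it was the 1 mitochondrial RNA called lower. Its direction held under every scaling tried, with -0.54 at 4 h under TMM.

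A ratio taken within the mitochondrial RNAs does not depend on how libraries are scaled, and for each joined pair it uses 2 genes of 1 mRNA. For each 100 UMIs of mt-Atp6, mt-Atp8 had 6.04 (5.89 to 6.20) in UI, 2.32 (2.26 to 2.37) in LP1 and 1.75 (1.70 to 1.79) in LP4. For each 100 UMIs of mt-Nd4, mt-Nd4l had 25.03 (24.3 to 25.7) in UI, 10.1 (9.82 to 10.3) in LP1 and 11.6 (11.4 to 11.8) in LP4. In both pairs the upstream gene, the shorter of the pair with 204 and 297 bases, thus held a smaller part of the pair's UMIs after *Bb*LP. A 3′ assay assigns a read to a gene by where it maps, and reads in the 43 shared bases fit both genes, so that these ratios count mapped fragments and are no ratio of proteins or of molecules. Over all cells the mt-Nd4l ratio was lower in LP1 than in LP4, and the mt-Atp8 ratio was lower in LP4 than in LP1. A smaller part of the mitochondrial UMIs after *Bb*LP was not limited to these 2 upstream genes. Of genes in neither pair, mt-Nd5 held 1.91%, 1.27% and 1.10% of them in UI, LP1 and LP4, and mt-Nd3 0.657%, 0.449% and 0.566%.

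**Figure D2:**
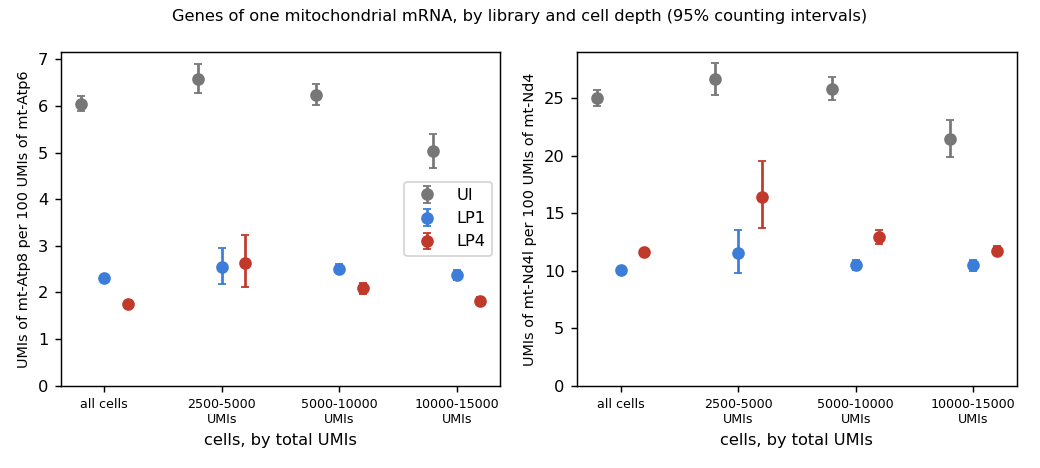
UMIs of the upstream gene per 100 UMIs of the downstream gene for the 2 joined pairs (left mt-Atp8 over mt-Atp6, right mt-Nd4l over mt-Nd4), over all cells and over cells of 3 depth ranges, with 95% counting intervals. UI points lie above LP1 and LP4 points in each range of cell depth, from 5.03 to 6.58 on the left.

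The ratios of the 2 joined pairs were taken again in cells of matched depth, since LP1 and LP4 cells held more UMIs. In cells of 2500 to 5000 UMIs the mt-Atp8 ratio was 6.58 in UI, 2.54 (2.18 to 2.96) in LP1 and 2.63 (2.12 to 3.24) in LP4, where the LP1 and LP4 intervals overlap, and the mt-Nd4l ratio was 26.7, 11.5 and 16.4. In cells of 5000 to 10000 UMIs the mt-Atp8 ratio was 6.24 in UI, 2.51 in LP1 and 2.08 in LP4, and the mt-Nd4l ratio was 25.8, 10.5 and 12.9. Among the 10000 to 15000 UMI cells they were 5.03, 2.37 and 1.81, and 21.4, 10.5 and 11.7. Across 8 clusters of cells the mt-Atp8 ratio ran from 4.68 to 6.64 in UI, from 1.68 to 2.61 in LP1 and from 1.34 to 1.83 in LP4. The mt-Nd4l ratio ran from 22.5 to 31.0 in UI, from 9.11 to 11.3 in LP1 and from 10.5 to 12.2 in LP4. Cluster F was the 1 cluster in which the mt-Atp8 ratio was not lower in LP4 than in LP1, with 1.81 (1.71 to 1.92) and 1.68 (1.21 to 2.27). In no cluster did a treated library reach the lowest UI value of either pair.

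The rise of the mitochondrial share was spread over the cells. The share of a cell's UMIs that were mitochondrial had a median of 1.97% in UI, 2.85% in LP1 and 3.23% in LP4. The middle part of the cells, from the lower to the upper quartile, ran from 1.64% to 2.32%, from 2.43% to 3.33% and from 2.63% to 3.92%, so that the lower quartile of both treated libraries lay above the upper quartile of UI. A share of at least 5%, the limit above which the study removed cells, was reached by 18 UI, 43 LP1 and 273 LP4 cells, or 0.296%, 0.842% and 5.52%. That limit removes more LP4 cells than UI cells, and with it in place the LP4/UI log2 ratio of the mitochondrial sum was 0.70 instead of 0.75.

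**Figure D3:**
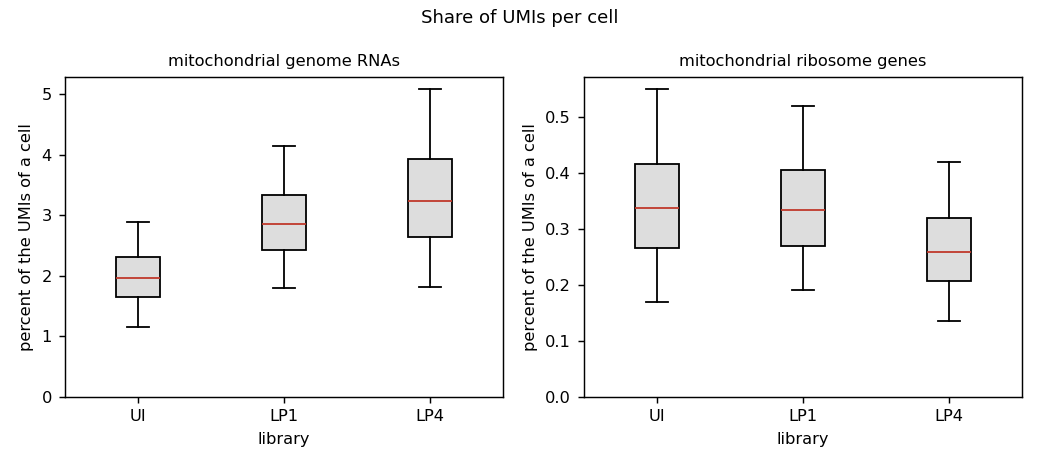
Percent of each cell's UMIs from the 13 mitochondrial RNAs (left) and from the 78 Mrp genes (right), with boxes from the lower to the upper quartile, the median as a line and whiskers from the 5th to the 95th percentile of cells. The median goes from 1.97% to 3.23% on the left and from 0.338% to 0.259% on the right.

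Mitochondrial and Mrp shares were only loosely tied from cell to cell. Spearman's rho between them was 0.14 in UI, 0.22 in LP1 and 0.17 in LP4, over the cells of each library, where both are sparse counts over 1 shared denominator. When the cells of each library were ranked by mitochondrial share and cut into 3 equal parts, the Mrp level went from 3349 CPM in the lowest part to 3788 in the highest in UI, from 3260 to 3778 in LP1 and from 2560 to 3004 in LP4. Within each library the Mrp level thus rose with the mitochondrial share, although across libraries the sums moved apart. The parts were not matched for depth. Median UMIs in the lowest and highest part were 4876 and 5116 in UI, 8927 and 9387 in LP1, and 10559.5 and 12582 in LP4. The 273 LP4 cells at or above 5% had 2935 Mrp CPM, and the other LP4 cells 2786. The 18 UI cells at or above 5%, whose median depth was 1961.5 UMIs, went the other way, with 1906 Mrp CPM against 3560 in the other UI cells.

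The Mrp genes are described next. Against UI, 4 of 78 were called higher and 4 lower in LP1, which is 5.13% each, near the 5.49% and 8.11% of all genes. In LP4 against UI 27 were called lower and 5 higher, or 34.6% and 6.41%, against 29.9% and 20.2% of all genes. LP4 against LP1 had 21 lower and 1 higher, or 26.9% and 1.28%, against 25% and 18.6%. The share called lower was thus close to that of all genes in both comparisons, and the share called higher was below it. In LP4 58 of 78 genes had a ratio below 0 against UI. Of all genes with UMIs in both libraries, 8711 were below 0 and 6442 above. The Mrp median was -0.29, where all genes had -0.16. Under TMM scaling 16 genes were called lower and 9 higher in LP4/UI, beside 23.3% and 25.6% of all genes, and the Mrp sum was at -0.18.

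The Mrp genes were also summed by the subunit in the symbol and by the number in the symbol. Neither matches the place or the ancestry of every protein. The sum of the 49 Mrpl genes was 2241, 2228 and 1829 CPM, a log2 ratio of -0.29 (-0.31 to -0.28) in LP4. Of these genes 16 were called lower and 4 higher, or 32.7% and 8.16%. The sum of the 29 Mrps genes was 1317, 1287 and 964 CPM, a log2 ratio of -0.45 (-0.47 to -0.43). Of these 11 were called lower and 1 higher, or 37.9% and 3.45%. Over all genes the shares were 29.9% lower and 20.2% higher. By number, 44 genes (Mrpl up to 36, Mrps up to 21) were set apart from 34 with higher numbers. The number is only a rough guide to which proteins bacterial ribosomes share, since some of the 34 also have a bacterial counterpart. The sums of the 44 and of the 34 genes had LP4/UI log2 ratios of -0.30 (-0.31 to -0.28) and -0.43 (-0.44 to -0.41). Called lower were 13 of 44 and 14 of 34, or 29.5% and 41.2% against 29.9% of all genes. In LP4 against LP1 20.5% and 35.3% were called lower, against 25%. The sum of each class was lower in LP4, and in LP1 all 4 lay between -0.05 and 0.00. The Mrps genes and the 34 genes with higher numbers had the lower LP4/UI ratios, and with 1 library a group these differences between classes have no test.

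**Figure D4:**
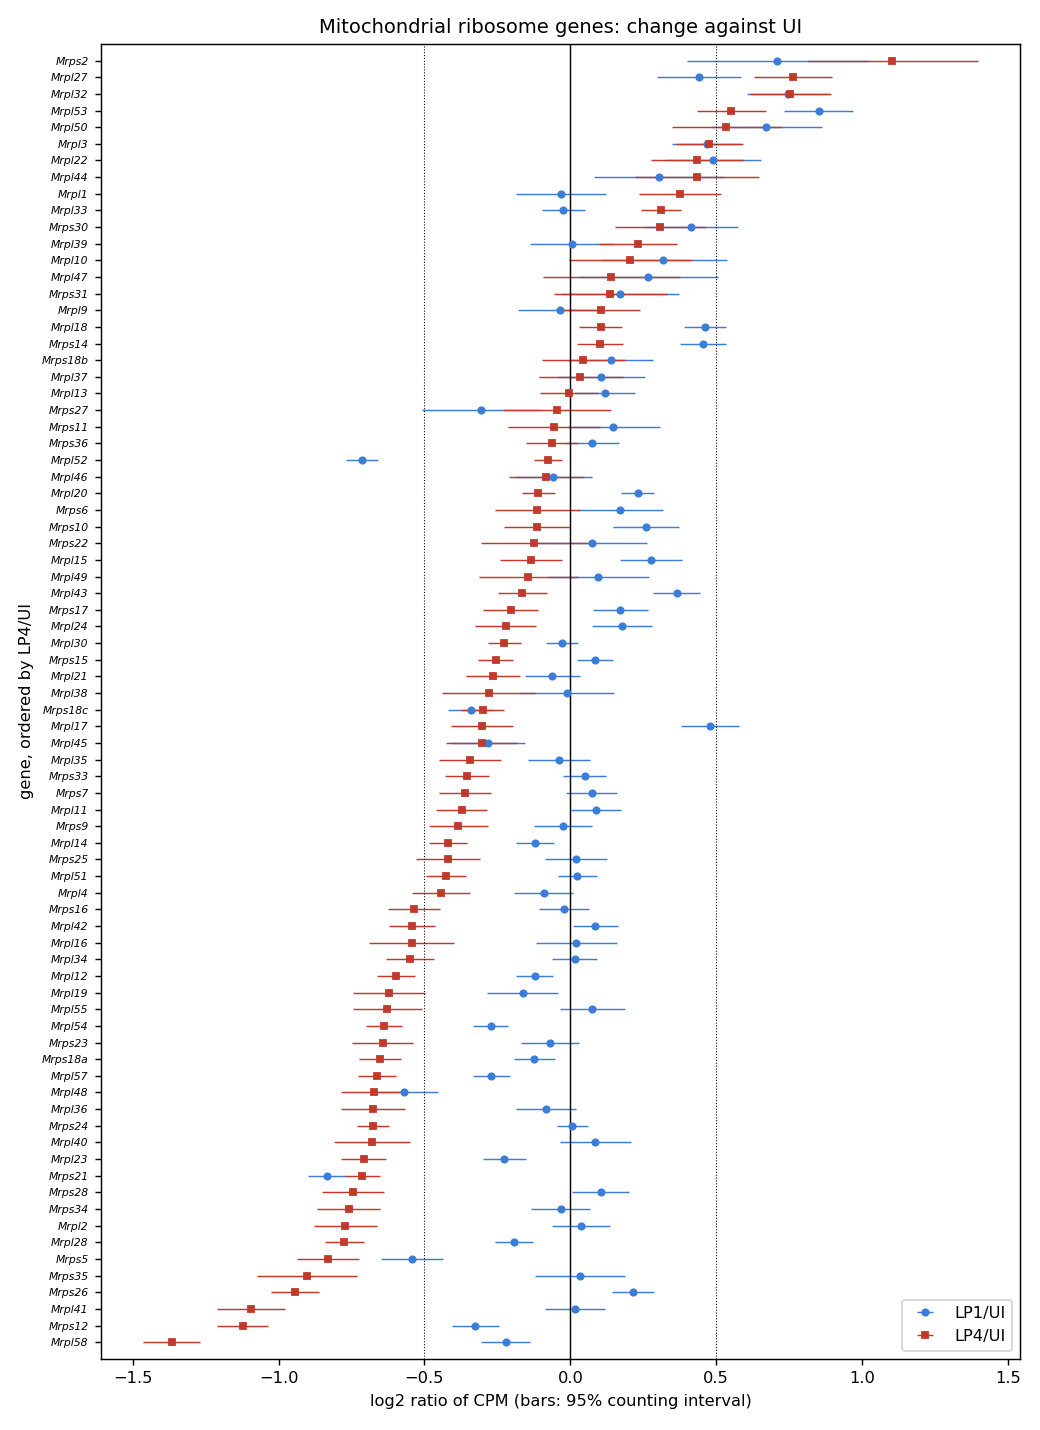
Log2 ratio of CPM against UI for each of the 78 Mrp genes, ordered by LP4/UI, with LP1/UI in blue, LP4/UI in red, 95% counting intervals and dotted lines at a ratio of 0.5 in either direction. Most red points lie left of 0 while blue points gather around it, and Mrps2 and Mrpl58 end the order at 1.10 and -1.37.

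At 4 h, of the 60 genes that reached 20 CPM in UI or LP4, the 5 lowest ratios belonged to Mrpl58, Mrps12, Mrpl41, Mrps26 and Mrps5. Mrpl58 (ENSMUSG00000018858, chr11:115403752-115412674), a peptidyl-tRNA hydrolase built into the large subunit that frees stalled ribosomes, was at 56.7, 48.6 and 22.004 CPM, with a log2 ratio of -1.37 (-1.47 to -1.27). Mrps12 (ENSMUSG00000045948, chr7:28739641-28741820), the counterpart of the bacterial protein at the decoding centre, was at 65.5, 52.3 and 30.1 CPM, with -1.12 (-1.21 to -1.04). Both had a small negative log2 ratio at 1 h, -0.22 and -0.33, that did not reach the call. Mrpl41 (ENSMUSG00000036850, chr2:24974117-24975098) and Mrps26 (ENSMUSG00000037740, chr2:130563742-130568695), 2 proteins without a bacterial counterpart, were not lower at 1 h. Mrpl41 was at 36.5, 36.9 and 17.1 CPM, and Mrps26 at 69.7, 80.8 and 36.2 CPM, with LP4/UI log2 ratios of -1.10 and -0.94. Mrps5, a protein of the channel by which mRNA enters, was at 39.9, 27.4 and 22.5 CPM and was called lower at both times, with -0.54 and -0.83.

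The genes that were higher at 4 h were fewer. Mrpl27 (ENSMUSG00000024414, chr11:94653767-94660089), whose bacterial counterpart reaches the peptidyl transferase centre, was at 16.7, 22.7 and 28.4 CPM, a log2 ratio of 0.76 (0.63 to 0.90). Mrpl32 (ENSMUSG00000015672, chr13:14608184-14613165), which the m-AAA protease of the inner membrane has to cut before it joins the ribosome, was at 16.04, 26.9 and 27.0 CPM, with 0.75 at 1 h and 0.75 at 4 h. Mrpl53 (ENSMUSG00000030037, chr6:83109040-83109939) was at 22.3, 40.2 and 32.7 CPM, higher at 1 h with 0.85 than at 4 h with 0.55. Mrpl3 was at 24.5, 33.8 and 34.0 CPM and Mrpl1, of the stalk that guides tRNA out, at 16.6, 16.2 and 21.5 CPM, with LP4/UI log2 ratios of 0.48 and 0.38 that did not reach the call. Below 20 CPM, and named after their values were seen, Mrpl50 at 8.98, 14.3 and 13.01 CPM and Mrps2 at 3.47, 5.67 and 7.45 CPM were the other 2 called higher. Mrps2 had the highest ratio of all 78 genes, 1.10 (0.81 to 1.40), with 124 UMIs in UI.

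At 1 h the lowest ratios were those of Mrps21, Mrpl52, Mrpl48, Mrps5 and Mrps18c, and the highest those of Mrpl53, Mrpl32, Mrpl17, Mrpl3 and Mrpl18, of 58 genes that reached 20 CPM in UI or LP1. Mrps21 was at 116.2, 65.2 and 70.9 CPM and stayed low, with log2 ratios of -0.83 at 1 h and -0.71 at 4 h. Mrpl48 was at 34.0, 22.9 and 21.3 CPM and likewise low at both times, with -0.57 and -0.67. Mrpl52 was low at 1 h alone. It was at 151.7 CPM in UI, 92.4 in LP1 and 143.8 in LP4, with -0.71 at 1 h and -0.08 at 4 h, and was the 1 Mrp gene called higher in LP4 against LP1, with 0.64. Mrpl17 and Mrpl18 were on the other side at 1 h, with 0.48 and 0.46, and then at -0.30 and 0.10 at 4 h. Mrpl17 was at 34.1, 47.6 and 27.7 CPM and Mrpl18 at 64.7, 89.0 and 69.5 CPM, and none of their ratios against UI was called. Mrps18c, 1 of the S18 proteins of the small subunit, was at 70.9, 55.9 and 57.5 CPM, and its LP1/UI log2 ratio of -0.34 was not called.

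A start region in the reference was found for 69 of the 78 Mrp genes (RefSeq, GRCm38.p6, 250 bases before to 50 after the start). It was searched on both strands for the letters bound by factors known to drive nuclear genes of mitochondria: GCGCA and GCGC with any 1 base between them for NRF1, CCGGAAGT for ETS proteins such as GABPA, AAGATGGC for YY1, and GGGCGG for SP1. A gene with more than 1 start was counted once. The NRF1 letters occurred in 18.8% of the 69 Mrp genes and 5.19% of all 27025 genes with a region, the ETS letters in 17.4% and 4.31%, the YY1 letters in 17.4% and 3.19%, and the SP1 letters in 49.3% and 38.2%. Of the genes with at least 10 CPM, 12.9%, 10.4%, 6.01% and 71.5% held them. In all, 34 Mrp genes, 49.3%, held NRF1, ETS or YY1 letters, against 11.7% of all genes with a region and 26.7% of those with at least 10 CPM. Of the 22 genes called lower at 4 h that have a region, 4 held the NRF1, 2 the ETS and 5 the YY1 letters, and of the 5 called higher 1 held each.

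The regions of 3 genes are shown from 100 bases before to 15 after the start, on the strand of the gene, for 1 gene that was lower and 2 that were higher at 4 h. Capitals mark the letters found.
Mrps26, chr2:130563657-130563771, plus strand, SP1, ETS and 2 overlapping NRF1 matches: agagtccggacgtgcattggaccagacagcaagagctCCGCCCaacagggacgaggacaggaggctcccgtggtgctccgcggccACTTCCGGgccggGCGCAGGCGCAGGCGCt
Mrpl32, chr13:14613023-14613137, minus strand, NRF1 and SP1: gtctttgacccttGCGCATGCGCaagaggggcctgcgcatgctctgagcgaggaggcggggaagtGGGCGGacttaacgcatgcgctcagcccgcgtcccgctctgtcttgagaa
Mrpl27, chr11:94653691-94653805, plus strand, ETS: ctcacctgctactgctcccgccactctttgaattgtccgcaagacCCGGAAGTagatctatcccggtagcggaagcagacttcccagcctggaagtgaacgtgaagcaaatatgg
Mrpl58, Mrpl41, Mrpl53 and Mrps2 held none of the 4, which says only that these letters are not in their windows.

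The GC content of the transcript went with the ratios to a like degree in Mrp genes and in all genes. Spearman's rho between GC content and the LP4/UI log2 ratio was -0.31 over 78 Mrp genes and -0.32 over 7925 genes of at least 10 CPM, each gene measured in the same pair of libraries. The 26 Mrp genes richest in GC had a median log2 ratio of -0.50, with 13 called lower, and the 26 poorest had -0.17, with 6 called lower. Of the genes of at least 10 CPM, the 2641 richest in GC had a median of -0.36, with 1056 called lower. The 2642 poorest had 0.23, with 361 called lower. The part of GC content in the result was not tested.

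The proteins that act on mitochondrial RNA and on the mitochondrial ribosome were followed as lists of nuclear genes, whose shares called in LP4 against UI stand beside the 20.2% higher and 29.9% lower of all genes. Of 21 genes of RNA processing, stability and decay, 4 were called higher and 4 lower, or 19.0% each. Pnpt1, which encodes the polynucleotide phosphorylase of mitochondrial RNA decay, was at 9.96, 10.9 and 58.7 CPM, with a log2 ratio of 2.56 (2.40 to 2.72). Ptcd1 had 0.77 and Pde12, which trims poly(A) tails, 0.73. On the other side Ptcd2 had -0.97, and Elac2, which cuts tRNA 3′ ends, and Hsd17b10, a part of the enzyme that cuts the 5′ ends, had -0.64 and -0.63.

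Of 10 transcription genes, 3 were called higher and 2 lower at 4 h, or 30% and 20%. Tfam, which starts transcription and packs the DNA, was at 12.2, 11.3 and 8.64 CPM, a log2 ratio of -0.50 (-0.68 to -0.31) that was just short of the call. Mterf3 had 0.63 and Tfb2m 0.14, and these 3 were the transcription genes with at least 5 CPM. Of 12 genes of DNA replication and packaging 2 (16.7%) were called higher and 5 (41.7%) lower, among them Rnaseh1 with 0.67, Dna2 with -0.98 and Mgme1 with -0.75, while Ssbp1 had 0.07 and the polymerase gene Polg -0.11. Tfam stands in both lists.

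In ribosome assembly 4 of 21 genes were called higher and 6 lower at 4 h, or 19.0% and 28.6%, near the shares of all genes. Rbfa, a factor of small subunit maturation, was at 69.1, 65.3 and 28.7 CPM, with -1.27 (-1.35 to -1.18), and Mrm2, which methylates the large ribosomal RNA, was at 5.99, 5.72 and 1.75 CPM, with -1.78. Ngrn had -0.83. Eral1, the chaperone of the small ribosomal RNA, went the other way from 1.65 to 5.42 CPM, with 1.72 (1.31 to 2.14), Rpusd4 had 0.96, and Ddx28 had 0.37, which was not called. Among 13 translation factors 1 was called higher and 4 lower, or 7.69% and 30.8%. The elongation factor gene Tufm, at 28.3, 18.0 and 15.3 CPM, and the gene of its exchange factor, Tsfm, at 4.45, 14.6 and 13.3 CPM, lay on opposite sides, with LP4/UI log2 ratios of -0.88 and 1.58. Oxa1l, the insertase that receives new chains at the inner membrane, had -1.06 and the recycling factor gene Mrrf -0.67, while the elongation factor G genes Gfm1 and Gfm2 had 0.42 and 0.36 and were not called.

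Of 20 genes listed for the charging of mitochondrial tRNAs, the synthetases with Qrsl1, Gatb and Gatc, 1 was called higher and 6 lower, or 5% and 30%. Lars2 was at 443, 303 and 185 CPM, a log2 ratio of -1.26, Gatc had -0.84 and Iars2 -0.57, while Rars2, Fars2 and Wars2 had 0.26, 0.03 and -0.18. Lars2 was also among the leading genes of an unnamed cluster of 193 cells with a median of 1940 UMIs together with Gm42418 and AY036118. Of 8 regulators of mitochondrial biogenesis that were tested 2 were called higher and 2 lower, or 25% each. Gabpa was at 14.4, 14.6 and 22.6 CPM and Nrf1 at 41.0, 37.8 and 58.1 CPM, with log2 ratios of 0.65 and 0.51, whereas Myc fell from 8.45 CPM in UI to 1.41 in LP4, with -2.59, and Ppargc1b had -0.58. Esrra and Pprc1, at 0.28 and -0.21, were not called.

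The Mrp genes were set beside the 2 most similar families. The 82 genes of cytosolic ribosomal proteins had LP1/UI and LP4/UI log2 ratios of their sum of -0.21 and -0.42. At 4 h 31 of them were called lower and 3 higher, or 37.8% and 3.66%, against 29.9% and 20.2% of all genes. The 77 nuclear genes of respiratory chain and ATP synthase subunits, whose proteins share complexes with the mitochondrial products, had sums at -0.32 and -0.42. Of these genes, 34 were called lower and 8 higher at 4 h, or 44.2% and 10.4%. At 4 h all 3 nuclear families were lower. At 1 h the Mrp sum, at -0.02, was level while the other 2 were not. They had 20 and 26 genes called lower beside 4 Mrp genes, or 24.4%, 33.8% and 5.13%, against 8.11% of all genes. Each family was also cut into 3 parts by transcript length. The shortest cytosolic ribosomal genes held 14 of those 20. Their median log2 ratio was -0.51, against 0.13 and -0.10 in the longer parts. The shortest respiratory genes held 15 of 26, with -0.66 against -0.01 and -0.15. The shortest Mrp genes held 2 of 4, with 0.01 against 0.06 and 0.05. The shortest parts differed in length between families. They ran from 345 to 733 bases for cytosolic ribosomal, 371 to 659 for respiratory and 418 to 1018 for Mrp genes. The families were thus not compared at like length. The part of length was not tested. By their sums, the nuclear and the mitochondrial parts of the respiratory chain lay on opposite sides of UI at both times.

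Clustering on genes that differed little between libraries gave 11 clusters, of which 8 had at least 50 cells in every library. G was named cycling-like and H dendritic cell-like by markers among their 10 leading genes. Clusters A to F had no listed marker among these. They were named macrophage-like because at least 3 macrophage markers were found in at least 50% of their cells. G and H also met this, with 7 and 6 such markers. The mitochondrial sum was higher in each of the 8, by a log2 ratio of 0.42 to 0.55 in LP1 and 0.44 to 0.90 in LP4, with the lowest value in H and the highest LP4 value in C. The Mrp sum was at -0.10 to -0.02 in LP1 and -0.49 to -0.22 in LP4. In LP4 it was lowest in H and highest in B, and in LP1 it was lowest in E. Among UI cells the Mrp level was 4356 CPM in cluster G and 4131 CPM in C, the highest, and 2893 CPM in F, the lowest, whereas the mitochondrial share varied little, from 1.89% to 2.17%. LP4 cells were most numerous in A and F and UI cells in A and B, with 83 LP4 cells in B and 96 UI and 61 LP1 cells in F, and H held 84 UI, 73 LP1 and 73 LP4 cells, so that the values of B, F and H rest on few cells.

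**Figure D5:**
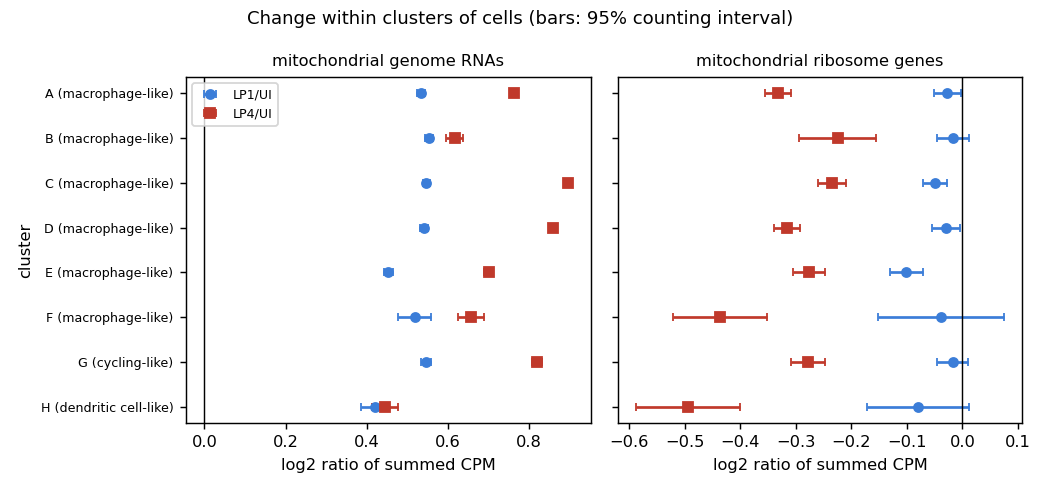
Log2 ratio of the summed CPM against UI in each of the 8 clusters compared, for the 13 mitochondrial RNAs (left) and the 78 Mrp genes (right), with LP1/UI as blue circles, LP4/UI as red squares and 95% counting intervals. All points on the left lie right of 0 and all red squares on the right lie left of 0.

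Depth was matched in the same way for the sums, in 5 ranges of UMIs per cell from 500 to 25000. The mitochondrial log2 ratio was between 0.52 and 0.63 in LP1 and between 0.64 and 0.78 in LP4 in all 5. The Mrp ratio was between -0.38 and -0.03 in LP1 and between -0.68 and -0.35 in LP4. From 2500 UMIs up, where each library had at least 91 cells, the LP1 range was -0.14 to -0.03. Within a library the Mrp level rose with cell depth, in UI from 3120 CPM in the lowest range to 3822 in the highest, so that LP4 cells, the deepest, were set against UI cells of lower depth in the sums over all cells. In cells of 5000 to 15000 UMIs the LP4/UI ratio of the Mrp sum was -0.51 instead of -0.35.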

How the data were processed

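Bone marrow derived macrophages in 3 libraries (UI, LP1, LP4) were measured with the Chromium 3′ v3.1 assay. The authors aligned reads with Cell Ranger (7.1.0 per the labels) to mm10, and deposited UMI counts per gene and barcode for each library; whether intronic reads were counted is not given in the sources used here. Cells with more than 500 UMIs and more than 500 genes were kept with no mitochondrial limit, and no doublet caller was run. UMIs were summed per library and divided by all UMIs of the kept cells to give CPM. The precision is that of the UMI counts: CPM carry exact Poisson intervals and ratios exact conditional binomial intervals at 95%, for counting error only. With 1 library a group there are no p-values. The interval code was tested on simulated data. Doublets and free RNA were left in, and an alternative that keeps cells of 5000 to 15000 UMIs leaves out the deepest cells.

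The members, gene lists and call rule were chosen with earlier results of these data known. Named Mrp genes were, for LP1/UI and for LP4/UI, the 5 highest and 5 lowest ratios of members that reached 20 CPM in either library, and named list genes the 3 highest and 3 lowest LP4/UI ratios with at least 5 CPM. Clustering (scanpy 1.11.5, leidenalg 0.10.2) used 2000 variable genes, centred within each library, with 30 components, 20 neighbours and a resolution of 0.5, on genes with under 1.5 times difference between libraries and no member among them. Coordinates are from GENCODE vM21 on GRCm38. Alternatives were the 5% mitochondrial limit, TMM (edgeR 4.0.16) and median-of-ratios scaling, another denominator, matched depth, macrophage-like cells alone, other minimum levels, a log2 ratio of 1 and means of cell shares. Protein sequences and 9 Mrp start regions were not used here. No column of another series was in the files.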

Additional observations from a re-analysis of the deposited data

How the results depend on the processing

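Each value rests on 1 library a group, so depth limits only the counting error and the spread between cultures is unknown. The direction of the mitochondrial sum, and of the Mrp sum in LP4, held in all alternatives run. Single genes were followed for the 13 mitochondrial genes and the Mrp genes with the 5 highest and 5 lowest ratios. Among them no ratio that had been called changed sign. The signs of the other Mrp genes were not compared. The study's limit of 5% mitochondrial UMIs gave 0.70 (LP4/UI) and 0.17 (LP4/LP1) for the mitochondrial sum. TMM shifts all ratios by 0.07 (LP1/UI), 0.17 (LP4/UI) and 0.10 (LP4/LP1). It gave 0.61, 0.92 and 0.31 for the mitochondrial sum and 0.053, -0.18 and -0.24 for the Mrp sum. Under TMM 10 Mrp genes were higher in LP1/UI, 16 lower and 9 higher in LP4/UI, and 13 lower and 2 higher in LP4/LP1. Of all genes, 7.09% were then higher in LP1/UI, 23.3% lower and 25.6% higher in LP4/UI, and 21.1% lower and 21.7% higher in LP4/LP1. Median-of-ratios scaling gave 0.55, 0.86 and 0.31 for the mitochondrial sum and -0.0017, -0.24 and -0.24 for the Mrp sum. With it 8 Mrp genes were higher in LP4/UI and 2 in LP4/LP1, where 23.6% and 21.6% of all genes were. The denominator without mitochondrial and cytosolic ribosomal protein genes gave 0.53, 0.73 and 0.20, and -0.37 (LP4/UI) and -0.34 (LP4/LP1) for the Mrp sum. Cells of 5000 to 15000 UMIs (3080 UI, 3999 LP1 and 3199 LP4) gave 0.53, 0.71 and 0.18, and -0.088, -0.51 and -0.42. In them 3 Mrp genes were higher in LP4/UI and 33 lower in LP4/LP1, and the cause was not tested. The share of all genes called was not taken in these cells, so these counts have nothing to stand beside. Means of cell shares gave 0.73 (LP4/UI) and 0.20 (LP4/LP1), and -0.38 and -0.36. Macrophage-like cells alone gave 0.22 for the LP4/LP1 mitochondrial sum. A log2 ratio of 1, a stricter rule by construction, left 0 lower and 0 higher in LP1/UI, 3 and 1 in LP4/UI, and 3 and 0 in LP4/LP1. For this rule too no share of all genes was taken. Leaving out the minimum of UMIs could not change a count, since the member with the fewest UMIs had 905. A minimum of 10 CPM moved no count of called Mrp genes beyond its limits. Of the values of the single genes followed under the alternatives, 317 stayed within their counting interval and 205 moved.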
